A study of Mus musculus with 9 samples.

Results

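The 43 genes described here carry a symbol that starts with Nduf, the name given to the nuclear-encoded subunits and several assembly factors of respiratory complex I. They were found by that symbol among the array's probe sets annotated to a single gene, and where a gene had more than 1 probe set the brightest was taken. They are 43 of 19858 genes measured in this way, and all 43 lay above the intensity filter that left 13335 genes for testing. RefSeq lists 49 protein-coding genes with an Nduf symbol, of which 43 are measured here and the others are not analysed here. The genes were grouped by where their product sits. There were 34 complex I subunits (10 of the N module, 5 of the Q module, 9 of the proximal and 10 of the distal membrane arm), 7 assembly factors, and 2 genes whose products are not counted as subunits of complex I today (Ndufa4 and Ndufa4l2).

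The cells were primary cultures of interscapular brown fat from male C57BL/6 mice aged 5 weeks, started from a fraction enriched in precursor cells and given insulin at rising doses until collection at about day 9. Each of 3 groups held 3 cultures, each measured on its own Affymetrix array: DMSO vehicle as control (cultures 1 to 3), the autotaxin inhibitor HA155 at 2.5 µM (cultures 4 to 6), and 1-oleoyl lysophosphatidic acid (LPA, the signalling lipid that autotaxin makes) at 5 µM (cultures 7 to 9). The sample titles number the cultures as subjects 1 to 9, and whether each came from its own mice was not established here. The labels place the compounds at 9 days in vitro and the design text places them in the differentiation period, which leaves it unclear how long the cells were exposed. Such cultures are mixed, holding fat cells together with cells that have not become fat cells, and they lack the nerve supply of the tissue.

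Complex I takes electrons from NADH, passes them along a chain of iron-sulfur clusters to ubiquinone and pumps protons across the inner mitochondrial membrane. The N module binds NADH, the Q module reduces ubiquinone, and the 2 parts of the membrane arm pump. Most subunits are made from nuclear genes, several core membrane subunits are made from mitochondrial DNA, and assembly factors join the modules without staying in the finished enzyme. Brown fat cells are rich in mitochondria, and their heat production depends on a high rate of electron flow, part of which enters at this complex.

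RefSeq promoter windows (GRCm38.p6, 250 bases before to 50 bases after a start listed for the gene, the first window listed per gene) were on hand for 38 of the 43 genes. That start can differ from the outer boundary of the gene, as it does for genes such as Ndufa3, Ndufa10, Ndufaf5 and Ndufs7. They were searched on both strands for 5 short motifs of factors known to act on genes of the respiratory chain. The letters GCATGCGC, the core of the nuclear respiratory factor 1 (NRF1) motif, were found in 5 of 38 windows (13.2%) and in 3.61% of 17492 windows of protein-coding genes. The stretches of 30 bases that hold them are shown 5′ to 3′ on the gene's own strand with the match in capitals. In 3 of the genes overlapping matches on both strands run together. Ndufaf4 had a further match at bases 2 to 9 after the listed start, outside the stretch shown.
Ndufa11, chr17:56717692-56717721, + strand: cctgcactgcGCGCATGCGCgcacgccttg
Ndufa6, chr15:82354356-82354385, - strand: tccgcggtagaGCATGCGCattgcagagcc
Ndufa8, chr2:36049328-36049357, - strand: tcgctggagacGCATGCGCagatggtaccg
Ndufaf4, chr4:24897960-24897989, + strand: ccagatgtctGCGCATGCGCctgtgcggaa
Ndufaf5, chr2:140170652-140170681, + strand: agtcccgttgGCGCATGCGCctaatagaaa

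The YY1 motif, searched as AAGATGGC, was found in 7 of 38 windows (18.4%) and in 3.22% of all windows. All 7 matches read on the gene's strand and began between 23 and 39 bases after the listed start. The motif contains the letters ATG, and whether these mark a start codon was not examined. The 7 genes come from all 4 structural groups of the enzyme, and their stretches are shown for that reason.
Ndufa3, chr7:3617384-3617413, + strand: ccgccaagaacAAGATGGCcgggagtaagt
Ndufa9, chr6:126849097-126849126, - strand: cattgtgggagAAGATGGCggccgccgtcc
Ndufb8, chr19:44555393-44555422, - strand: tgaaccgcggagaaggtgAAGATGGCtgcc
Ndufc1, chr3:51408915-51408944, - strand: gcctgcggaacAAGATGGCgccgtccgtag
Ndufs4, chr13:114388045-114388074, - strand: gcgtttgcctacaggAAGATGGCggcggtc
Ndufs6, chr13:73328433-73328462, - strand: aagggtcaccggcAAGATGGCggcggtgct
Ndufs7, chr10:80249462-80249491, + strand: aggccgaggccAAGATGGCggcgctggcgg

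The cyclic AMP response element, searched as TGACGTCA, was found in 3 of 38 windows (7.89%) and in 2.34% of all windows. The 3 stretches are shown because cyclic AMP is the messenger through which noradrenaline acts on brown fat.
Ndufa10, chr1:92473807-92473836, - strand: acactcagtggTGACGTCAtggcagcgcgc
Ndufa11, chr17:56717593-56717622, + strand: tttacctttccTGACGTCAcgggcgtctct
Ndufb2, chr6:39592540-39592569, + strand: gtgcgacgcagTGACGTCAcgggccgggac

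The GABP motif, searched as CCGGAAG, was found in 5 of 38 windows (13.2%) against 11.9% of all windows, namely those of Ndufaf1, Ndufb6, Ndufb7, Ndufs3 and Ndufs8. The oestrogen-related receptor (ERR) element, searched as TNAAGGTCA, was found in 0 of 38 windows and in 1.05% of all. Of the genes with a match, 4 of 5 for NRF1, 7 of 7 for YY1, 3 of 3 for the cyclic AMP element and 5 of 5 for GABP were among those that fell with LPA below, as did 36 of all 43. These matches describe letters in a window, and no binding was measured.

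The arrays were alike in scale, with a median intensity of 70.7 to 72.8. LPA cultures lay apart from the other 6 on the first principal component, which held 66.7% of the variance. Culture 8 had the lowest mean correlation with the other arrays (0.985). All 14 general adipocyte markers measured lay above the filter. Of 14 brown fat markers, 4 did not: Ucp1, the uncoupling protein that defines brown fat, read 4.97 to 5.40 over the 9 arrays, below the filter level of 5.59 on the log2 scale. Dio2 and Elovl3 were also below it in every group on average, and Cidea was below it in control and LPA but read 6.15 to 6.53 in the 3 HA155 arrays.

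With LPA, 36 of the 43 Nduf genes fell against control and 0 rose (limma, Benjamini-Hochberg adjusted p below 0.05 over all 13335 genes). Of all genes tested 10.8% were called lower, 12.2% higher and 23.0% in either direction. The median log2 difference over the 43 was -0.44, against 0.01 over all genes, and every member's difference lay below 0, where 48.6% of all genes did. The intensity fell to 55.3% of control for Ndufb9 and 55.9% for Ndufa9, and 20 of the 43 differences were -0.5 or lower, as were 4.45% of all genes. In 36 of the 43 the highest LPA array lay below the lowest control array, which was the case for 15.6% of all genes. In cultures measured in bulk, fewer cells of a type and less RNA per cell cannot be told apart.

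**Figure D1:**
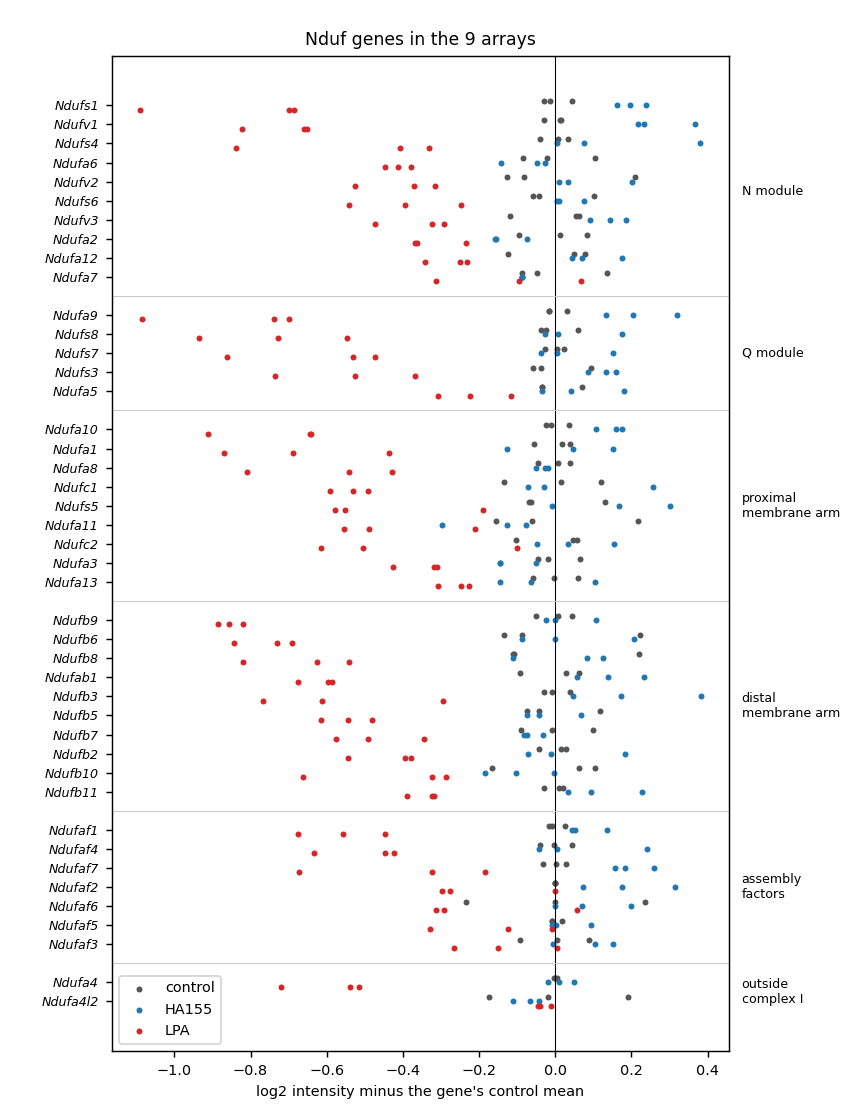
Each point is 1 array of 1 Nduf gene, as log2 intensity minus that gene's mean over the 3 control arrays (x axis), with genes grouped by the place of their product (y axis) and coloured by group (control, HA155 or LPA, 3 arrays each). The LPA points lie to the left of the control points in 36 of the 43 genes, while HA155 points lie on both sides of 0. The mean HA155 difference is above 0 in 32 genes and below 0 in 11 (51.0% of all genes lie above).

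Subunits of the N module, which holds the NADH site, fell in 9 of 10 cases with a median of -0.40. Ndufs1, the large subunit that carries several iron-sulfur clusters, read 10.81, 10.87 and 10.79 in the control cultures on the log2 scale. It read 10.12, 9.73 and 10.14 with LPA, so that the groups were a wide step apart and culture 8 was the lowest. The difference was -0.82 (SE 0.10, adjusted p 0.000107), or 56.4% of the control intensity.

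Ndufv1, whose product binds NADH and the flavin, read 10.26, 10.30 and 10.30 in control and 9.63, 9.47 and 9.64 with LPA. These groups did not overlap either, and culture 8 was again the lowest. The difference was -0.71 (SE 0.07, adjusted p 2.4e-05). Ndufs4, an accessory subunit whose loss in mice is used as a model of mitochondrial encephalopathy, fell by 0.53, and Ndufv2, another iron-sulfur subunit, fell by 0.40. The remaining N module subunits that fell lay between -0.41 for Ndufa6, a small accessory subunit, and -0.27 for Ndufa12.

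Ndufa7 was the N module subunit that did not pass. It read 7.93, 7.97 and 8.15 in control and 7.70, 8.08 and 7.92 with LPA. The groups overlapped, since LPA culture 8 lay above 2 of the control cultures. The difference was -0.11 (95% interval -0.32 to 0.09, adjusted p 0.435).

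The Q module had the lowest median of the 4 structural groups, -0.62, and 4 of its 5 measured subunits fell. Ndufa9, which sits where this module meets the membrane arm, read 10.81, 10.81 and 10.85 in control and 10.09, 9.74 and 10.13 with LPA. All LPA cultures were well below control, culture 8 most of all, and the difference was -0.84 (SE 0.10, adjusted p 8.98e-05). Ndufs8, an iron-sulfur subunit, read 9.47, 9.46 and 9.56 in control and 8.77, 8.56 and 8.95 with LPA.

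The Ndufs8 groups did not overlap, and the difference was -0.74 (SE 0.09, adjusted p 0.000199). Ndufs7, which holds the last cluster before ubiquinone, fell by 0.62, and Ndufs3, a core subunit that forms early in assembly, fell by 0.54. The accessory subunit Ndufa5 read 8.52, 8.52 and 8.63 in control and 8.25, 8.44 and 8.34 with LPA. Its groups did not overlap but its difference of -0.22 had an adjusted p of 0.0585. It passed without LPA culture 8 (adjusted p 0.0270) and with quantile normalization repeated (0.0435).

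The 6 nuclear-encoded core subunits measured (Ndufs1, Ndufs3, Ndufs7, Ndufs8, Ndufv1 and Ndufv2), those with counterparts in the bacterial enzyme, all fell, with a median of -0.67. Of the core subunits made from mitochondrial DNA, ND3 had a probe set annotated to it alone. Its brightest probe set fell by 0.18 (adjusted p 0.0477), and its second, fitted in a model with a row for each probe set, was -0.20 with an adjusted p of 0.0747. The call for ND3 therefore depended on the probe set.

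All 9 subunits of the proximal membrane arm fell, with a median of -0.44. Ndufa10, an accessory subunit with a fold like that of nucleoside kinases, read 11.23, 11.29 and 11.25 in control and 10.62, 10.34 and 10.61 with LPA. The groups were far apart, and the difference was -0.73 (SE 0.08, adjusted p 4.81e-05). Ndufa1, a small membrane subunit whose gene is X-linked, read 9.04, 9.12 and 9.14 in control and 8.23, 8.66 and 8.41 with LPA.

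For Ndufa1 culture 8 was the highest of the LPA arrays, the reverse of its place in Ndufa10, and the groups still did not overlap (difference -0.67, SE 0.10, adjusted p 0.000813). Ndufa8 and Ndufs5, which face the intermembrane space, fell by 0.59 and 0.44. Ndufc1 fell by 0.54 and Ndufa3 by 0.35, while Ndufa13, also known as Grim19, had the smallest fall of the arm (-0.26). Ndufc2 fell by 0.41 although its groups overlapped: LPA culture 8 read 10.75 and control culture 2 read 10.74.

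Ndufa11, a membrane subunit related in fold to the import channel protein Tim17, was the member whose probe sets differed in call. The brighter read 9.33, 9.24 and 9.61 in control and 8.84, 8.91 and 9.18 with LPA, groups that did not overlap but came close (difference -0.42, SE 0.11, adjusted p 0.0203). With each probe set fitted as its own row the other had a difference of -0.19 and an adjusted p of 0.105. The adjusted p of the brighter one was 0.0845 without control culture 3, 0.0708 without LPA culture 7 and 0.0607 without LPA culture 8.

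All 10 subunits of the distal membrane arm fell, with a median of -0.55. Ndufb9, a small accessory subunit of the LYR family, read 10.07, 10.13 and 10.17 in control and 9.31, 9.27 and 9.24 with LPA. The LPA cultures lay within a narrow band, and this was the largest difference among the 43 (-0.85, SE 0.06, adjusted p 3.09e-06). Ndufb6 read 11.24, 11.20 and 11.55 in control and 10.64, 10.49 and 10.60 with LPA.

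For Ndufb6 control culture 3 stood above the other control cultures, and the LPA cultures were all lower (difference -0.76, SE 0.10, adjusted p 0.00032). Ndufb8 fell by 0.66, and Ndufab1, the mitochondrial acyl carrier protein that also serves fatty acid synthesis, fell by 0.62. Its second probe set fell as well (-0.64). Ndufb3 and Ndufb5 fell by 0.56 and 0.55, and Ndufb11, an X-linked gene, had the smallest fall of the arm, 0.34. Probe sets annotated to both Ndufb4 and its copy Ndufb4b, which were not counted among the 43, fell by 0.50 and 0.51 in the fit with a row for each probe set. A probe set annotated to both Ndufs5 and its pseudogene copy Ndufs5-ps had a difference of -0.33 in that fit (adjusted p 0.115), and its groups overlapped through LPA culture 8.

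**Figure D2:**
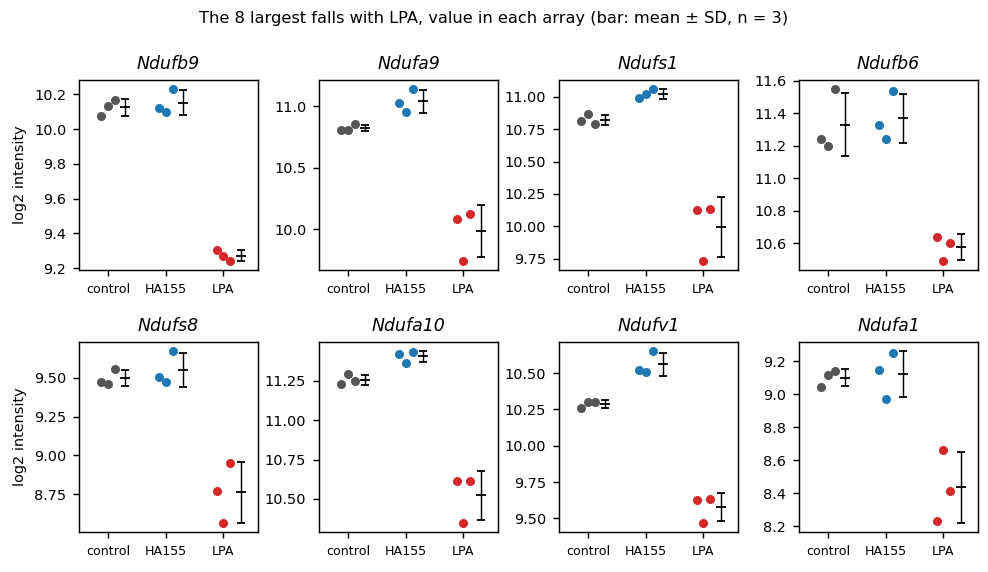
Log2 intensity (y axis) in each array of control, HA155 and LPA (x axis) for the 8 Nduf genes with the largest called difference between LPA and control; bars show the mean and SD of 3 arrays. The LPA arrays lie below all control and HA155 arrays in each of the 8 genes, and the y axes differ in range and do not start at 0.

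The assembly factors with an Nduf symbol gave a lower count, 3 of 7, and a median of -0.19. The 4 not called were also the dimmest of the 7, with control means of 6.18 to 7.86 against 8.33 to 9.30 for the 3 that fell. Whether the low signal reduced their differences was not tested. Ndufaf1, part of the intermediate complex that builds the membrane arm, read 9.29, 9.32 and 9.28 in control and 8.85, 8.62 and 8.74 with LPA. The groups were well separated (difference -0.56, SE 0.07, adjusted p 0.00012). Ndufaf4, which acts on the Q module, read 8.29, 8.37 and 8.32 in control and 7.91, 7.70 and 7.88 with LPA.

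Ndufaf4 was thus lower in every LPA culture (difference -0.50, SE 0.08, adjusted p 0.00126). Ndufaf7, a methyltransferase that modifies a core subunit, read 8.50, 8.53 and 8.47 in control and 8.18, 7.83 and 8.32 with LPA. Its groups did not overlap, but the LPA cultures were more spread (SD 0.25) than the control cultures (SD 0.03). The difference was -0.39 (SE 0.10, adjusted p 0.0173). The adjusted p was 0.0619 without control culture 2 and 0.0520 in a fit of the 6 control and LPA arrays alone.

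Ndufaf2, a late-acting factor related to the subunit Ndufa12, read 7.86 in each control culture and 7.58, 7.56 and 7.86 with LPA. LPA culture 9 thus lay at the control level while the other 2 were lower. The difference was -0.19 (95% interval -0.38 to 0.00, adjusted p 0.150), and without culture 9 it was -0.29 with an adjusted p of 0.0209.

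Ndufaf5, a hydroxylase that modifies Ndufs7, read 6.17, 6.20 and 6.17 in control and 5.85, 6.17 and 6.06 with LPA. LPA culture 8 reached the control range, and the difference was -0.15 (adjusted p 0.193). Without culture 8 the adjusted p was 0.0410.

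Ndufaf3, the partner of Ndufaf4, read 7.57, 7.39 and 7.48 in control and 7.33, 7.21 and 7.48 with LPA. Ndufaf6, an early-acting factor, read 6.56, 6.09 and 6.32 in control and 6.01, 6.03 and 6.38 with LPA. The groups of both genes overlapped through LPA culture 9. Their differences were -0.14 (adjusted p 0.263) and -0.18 (adjusted p 0.343), and the 95% interval for Ndufaf6 ran from -0.46 to 0.10.

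Of the genes named Nduf that are not counted as complex I subunits, Ndufa4 fell and Ndufa4l2 did not pass. Ndufa4, whose product is now placed with cytochrome oxidase, read 12.17, 12.17 and 12.18 in control and 11.64, 11.45 and 11.66 with LPA. The groups were far apart (difference -0.59, SE 0.06, adjusted p 6.73e-05). Ndufa4l2, its hypoxia-induced relative, read 5.79, 6.00 and 5.64 in control and 5.77, 5.80 and 5.76 with LPA.

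The Ndufa4l2 values lay close to the filter level and the LPA cultures fell inside the control range (difference -0.03, 95% interval -0.21 to 0.15, adjusted p 0.825). Its difference changed sign to 0.06 without control culture 2.

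Of the 36 falls, 29 passed in all 18 alternative fits tried and 7 were lost in 1 or more. Apart from Ndufa11 and Ndufaf7 these were Ndufa12 (adjusted p up to 0.0642, without control culture 2 or 3), Ndufa13 (up to 0.0820, without control culture 1 or 3, without LPA culture 7, or with array weights) and Ndufb10 (up to 0.0640, without control culture 1 or 3). Ndufs5 was lost without control culture 1 or LPA culture 7 or 9 (up to 0.0635). Ndufc2 was lost without control culture 1 or 3, without LPA culture 7 or 9, and in the fit of 6 arrays (up to 0.0925). No member that passed changed sign in any of these fits.

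**Figure D3:**
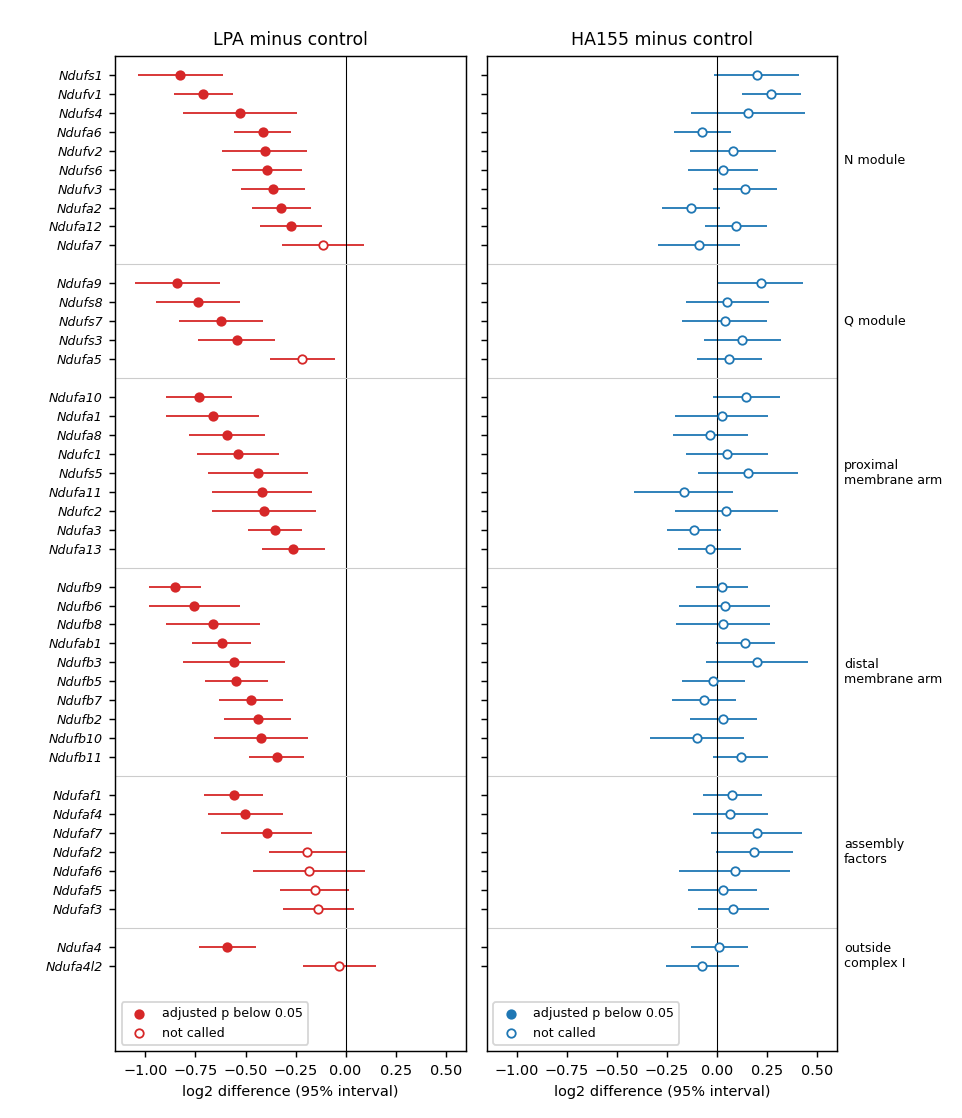
Log2 difference of each Nduf gene (point) with its 95% interval (line) for LPA minus control and HA155 minus control (x axes), from limma on 9 arrays; filled points passed an adjusted p of 0.05. With LPA 36 of 43 points are filled and all lie left of 0, and with HA155 none is filled. Both panels use the same 3 control arrays.

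With HA155, 0 of the 43 Nduf genes passed the test against control, where 1.03% of all genes did (limma, Benjamini-Hochberg). At an unadjusted p below 0.05 there were 2 members, against 8.11% of all genes. The median difference was 0.05, and 32 of the 43 differences lay above 0, as did 51.0% of all genes. The 95% intervals of the 43 reached from -0.42 at the lowest bound to 0.46 at the highest. Each gene's own interval was narrower, such as -0.10 to 0.16 for Ndufb9. Differences within a gene's own interval could not be told apart with 3 cultures a group. The comparison shares its control arrays with that of LPA.

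Ndufv1 had the smallest p of the 43. It read 10.26, 10.30 and 10.30 in control and 10.52, 10.51 and 10.65 with HA155. The HA155 cultures were all higher, and the difference was 0.27 (SE 0.07, 95% interval 0.12 to 0.42, unadjusted p 0.00193, adjusted p 0.123). It passed with array weights (adjusted p 0.0276) and without LPA culture 8 (0.0377), which is in neither group but enters the shared estimate of spread and the intensity filter.

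Ndufa9 read 10.81, 10.81 and 10.85 in control and 11.03, 10.96 and 11.14 with HA155 (difference 0.22, SE 0.10, unadjusted p 0.0440, adjusted p 0.598). Ndufs1 read 10.81, 10.87 and 10.79 in control and 10.99, 11.02 and 11.06 with HA155 (difference 0.20, adjusted p 0.671). Both genes had groups that did not overlap, with HA155 the higher, and neither passed.

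Ndufaf2 read 7.86 in each control culture and 8.17, 7.93 and 8.04 with HA155 (difference 0.19, adjusted p 0.637). Ndufab1 read 10.36, 10.20 and 10.32 in control and 10.44, 10.35 and 10.53 with HA155 (difference 0.14, adjusted p 0.646). Groups did not overlap for Ndufaf2 and overlapped for Ndufab1, where control culture 1 lay just above HA155 culture 5. In all, HA155 and control did not overlap in 11 of the 43 genes, against 16.8% of all genes. HA155 was the higher in 10 of these (8.87% of all genes) and the lower in Ndufa3, at -0.11 (7.90% of all genes). The lowest difference of the 43 was that of Ndufa11 (-0.17).

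Part of the HA155 pattern lay in 1 culture. Culture 6 was the highest of the 3 HA155 arrays in 34 of 43 Nduf genes (79.1%), against 29.3% of all genes, and culture 5 was the highest in 0. The median of the 43 genes relative to the control means was 0.15 in culture 6, 0.03 in culture 4 and -0.01 in culture 5. Without culture 6 the median difference between HA155 and control was -0.01, and without culture 5 it was 0.10. The cause was not tested.

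Between the LPA and HA155 cultures, 36 of the 43 genes were lower with LPA and 0 were higher, where 12.4% of all genes were called lower and 13.7% higher (limma, Benjamini-Hochberg). The median difference was -0.53, and groups did not overlap in 37 genes, all with LPA the lower (18.2% of all genes). The largest differences were those of Ndufa9 (-1.06, SE 0.10, adjusted p 1.29e-05) and Ndufs1 (-1.02, SE 0.10, adjusted p 1.76e-05), whose LPA intensity was 48.0% and 49.2% of that with HA155. Ndufv1 followed at -0.98 (adjusted p 1.55e-06), then Ndufb9 at -0.88 (adjusted p 1.35e-06) and Ndufa10 at -0.88 (adjusted p 8.63e-06).

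For Ndufb9 HA155 read 10.12, 10.10 and 10.23, close to its control values, and for Ndufa10 it read 11.42, 11.36 and 11.43, above all 3 control cultures. In these 2 genes as in Ndufa9, Ndufs1 and Ndufv1, all LPA arrays lay below all HA155 arrays. LPA was lower against both other groups in 34 of the 43 genes, a count in which both comparisons share the LPA arrays. Of all genes, 10.8% were lower against control and 12.4% against HA155, and the share lower against both was not computed. Ndufa2, a thioredoxin-like subunit, and Ndufa11 passed against control but not against HA155, and Ndufa5 and Ndufaf2 against HA155 but not against control. In neither comparison did Ndufa7, Ndufaf3, Ndufaf5, Ndufaf6 or Ndufa4l2 pass. Of the 36 differences from HA155, 31 passed in all 18 alternative fits. Ndufa13 (adjusted p up to 0.166), Ndufb10 (up to 0.158), Ndufa5 (up to 0.0824), Ndufa3 (up to 0.0717) and Ndufc2 (up to 0.0660) were lost without HA155 culture 6, and apart from Ndufa3 in other fits too. Conversely, 5 genes not called against HA155 passed in some of the 18 fits: Ndufa2 in 5 (adjusted p down to 0.0226), Ndufaf3 and Ndufaf5 in 2 each, and Ndufa11 and Ndufaf6 in 1 each.

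The variation among replicate cultures was larger with LPA. The median SD of a member was 0.06 in control, 0.09 with HA155 and 0.13 with LPA, against 0.07, 0.05 and 0.11 over all genes. The median of the 43 genes relative to the control means was -0.53 in culture 7, -0.44 in culture 8 and -0.47 in culture 9, and -0.02 to 0.03 in the control cultures. The fit uses 1 spread for all groups.

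Assembly factors of complex I with other symbols were lower with LPA in 8 of 13 tested (10.8% of all genes), with a median of -0.38. Foxred1, an oxidoreductase-like assembly factor, fell by 0.77 (adjusted p 5.06e-05), Ecsit by 0.67 and Acad9 by 0.48, the latter both members of the intermediate complex that also holds Ndufaf1. Aifm1, through which the import of several subunits runs, fell by 0.52. Chchd4, its partner in import, had a difference of -0.30 (adjusted p 0.0549), and Lyrm2 the highest of the list (0.10, adjusted p 0.348). In HA155 against control 0 of the 13 passed (1.03% of all genes), and 2 had an unadjusted p below 0.05 (8.11% of all genes).

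In complexes II, III, IV and ATP synthase 40 of 53 genes tested were lower with LPA, where 10.8% of all genes were called lower. The median was -0.52 beside -0.50 for the 34 complex I subunits. The sets differ in make-up, since the 34 leave out assembly factors. The 53 also hold genes other than subunits, such as Sdhaf4 (0.28), Uqcc2 (-0.01) and Atpif1 (0.08), and isoforms such as Cox6a2 (0.05). Complex II genes were lower in 5 of 8 (largest Sdhb, -0.75), complex III in 10 of 14 (Cyc1, -0.95), complex IV in 10 of 15 (Cox8b, -1.85) and ATP synthase in 15 of 16 (Atp5d, -0.71). Cox8b, a subunit found in muscle and brown fat, was outside the range of the 43 Nduf genes, none of which fell by more than 0.85. So were Cyc1 and Cox7a1, the latter at -1.84 with LPA. With HA155 the 2 complex IV genes Cox7a1 and Cox8b rose, by 1.13 and 1.01, where 1.03% of all genes were called in either direction. No difference between these complexes and complex I was tested.

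In a list of other NADH dehydrogenases and electron entry genes, which also held Nnt, 6 of 9 were lower with LPA (10.8% of all genes). The median of the list was -0.35. Etfdh and Etfb, which pass on electrons from fatty acid oxidation, fell by 0.87 and 0.80, and Aifm2, also known as Fsp1, fell by 0.78. Nnt, the transhydrogenase, had a difference of 0.18 (adjusted p 0.231). Gpd2, the mitochondrial glycerol phosphate dehydrogenase of brown fat, fell by 0.35 with LPA and was the gene of this list that rose with HA155 (0.34, adjusted p 0.0413).

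Among regulators of respiratory genes, 6 of 19 were lower with LPA (10.8% of all genes), and the median was -0.18. The coactivators Ppargc1b and Ppargc1a fell by 0.68 and 0.60, the nuclear receptors Pparg and Esrra (which encodes an ERR) by 0.46 and 0.41, and Nrip1 and Polrmt by 0.22 and 0.21. Of other factors whose motifs were searched above, Nrf1 had a difference of 0.03 (adjusted p 0.724), Gabpa 0.05 (0.658), Yy1 0.02 (0.827) and Esrrg, another ERR gene, -0.18 (0.167), and none of these 4 passed. Tfam, which packages mitochondrial DNA, had a difference of -0.05 (adjusted p 0.607). Differences lay above 0 in 6 of the 19 (51.4% of all genes), the highest being that of Pprc1 (0.21), and 0 were called higher. With HA155 0 of the 19 passed (1.03% of all genes), with 2 at an unadjusted p below 0.05 (8.11% of all genes).

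**Figure D4:**
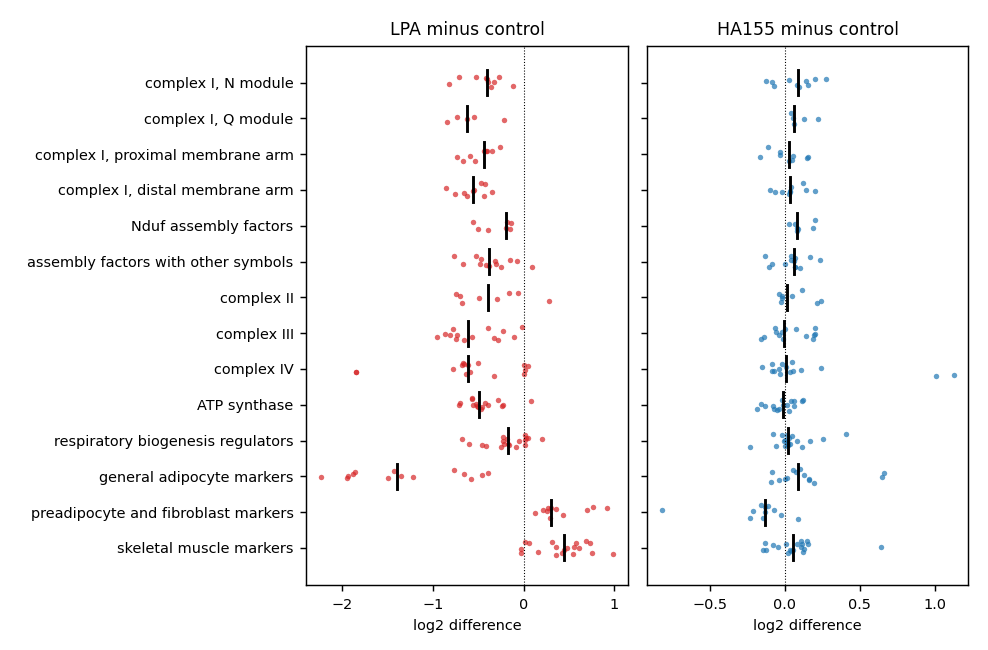
Log2 differences (x axes) of every tested gene in each list (points, 1 per gene) with the list's median (bar) for LPA minus control and HA155 minus control; the dotted line is the median of all 13335 genes. With LPA the genes of the 4 complex I groups range from -0.85 to -0.11 and overlap both the general adipocyte markers (median -1.39, highest -0.39) and the regulators (median -0.18). With HA155 the medians of the 4 groups run from 0.02 to 0.09.

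Markers of cell types were read in the same arrays, and their counts stand beside 12.2% of all genes called higher and 10.8% called lower with LPA. With LPA all 14 general adipocyte markers fell, with a median of -1.39, and their summed intensity was 42538 to 43957 in control, 44592 to 46702 with HA155 and 23097 to 24201 with LPA. The summed intensity of the 43 Nduf genes was 41310 to 43375 in control, 42372 to 46612 with HA155 and 28040 to 29190 with LPA. Of the brown adipocyte markers 4 fell and 1 rose of 10 tested, the summed intensity of all 14 measured being 2473 to 2576 in control, 3413 to 3564 with HA155 and 1771 to 1921 with LPA. With HA155 2 of the 14 general and 3 of the 10 brown adipocyte markers rose against control, 1 of 11 preadipocyte and fibroblast markers fell (Dlk1, -0.82) and 1 of 19 skeletal muscle markers rose (Myh1, 0.64), where 1.03% of all genes were called. The brown list shares Cox7a1 and Cox8b with the complex IV list above, so the counts of these lists repeat the same genes.

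Preadipocyte and fibroblast markers rose with LPA in 8 of 11 cases, and their summed intensity was 38469 to 40693 in control, 35262 to 39506 with HA155 and 50207 to 55993 with LPA. Skeletal muscle markers rose in 14 of 19 tested, with sums of 2393 to 2622 in control, 2521 to 2714 with HA155 and 3241 to 3805 with LPA, and Myh2 and Myh4 below the filter. None of 7 macrophage markers passed in the limma fit, 0 had an unadjusted p below 0.05, and 8 of 15 measured, Adgre1 among them, were below the filter. Endothelial markers rose in 2 and fell in 1 of 10 (Pecam1, Kdr and Emcn were below the filter), Schwann cell markers rose in 1 of 6, and proliferation markers in 1 of 11, counts of 1 or 2 genes beside the shares of all genes above. The part of cell composition in the Nduf differences was not tested.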

How the data were processed

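Total RNA of 9 primary brown fat cultures, 3 per group, was hybridised to Affymetrix arrays, per the labels. The deposited table gives 1 intensity per probe set and array, and RMA produced these values according to the submitters' processing notes, with its version not given in the sources used here. RMA makes array distributions alike, which would remove a shift common to all genes. That the values are linear was inferred from their range. Log2 was taken with no offset. Probe sets with a single symbol in the platform annotation, which can be old, were used (21706 of 35432), the brightest per gene. The filter left out 6523 genes whose mean fell under the 40th percentile of the probe sets (log2 5.59, intensity 48.2).

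Tests used limma 3.58.1 under R 4.3.3 (a linear model of 3 groups over 9 arrays with empirical Bayes, two-sided), with Benjamini-Hochberg adjustment in each comparison. No batch is named in the labels, and one aligned with the groups could not be separated from treatment. The number of arrays limits the precision, and an exact test of 3 against 3 cannot go below p = 0.1. The procedure was tested on simulated data. Alternatives were no filter or the 20th percentile, log2(intensity + 16), the mean over probe sets, array centring, repeated quantile normalization, robust limma-trend, array weights, the 6 arrays compared, and each array left out. A fit with each probe set as a row was added after seeing the data.

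Array values are given for the 8 largest called differences with LPA, every member not called there, the 5 smallest p with HA155, the 5 largest differences between LPA and HA155, every assembly factor, Ndufa4, Ndufa4l2, and members whose probe sets differ in call. The members, lists and tests were chosen with earlier results of these data known. RefSeq lists pseudogene copies of some members, such as Ndufa11 and Ndufab1, whose probes could share signal. Ndufa7 was identical in the 3 HA155 arrays and Ndufa3 in 2 of them, and 2 control arrays were equal for Ndufa9, Ndufaf2 and Ndufaf5. Such ties understate the spread. Some values also recurred between groups. LPA culture 8 equalled control cultures 1 and 3 for Ndufaf5. LPA culture 9 equalled control cultures 2 and 3 for Ndufaf2 and control culture 3 for Ndufaf3. No promoter window was matched for Ndufa2, Ndufa4l2, Ndufaf6, Ndufb9 and Ndufs1.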

Additional observations from a re-analysis of the deposited data

How the results depend on the processing

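No Nduf gene called in a comparison changed sign under the 18 alternatives. Of those not called, 1 changed sign for LPA against control (Ndufa4l2), 16 for HA155 against control and 1 for LPA against HA155 (Ndufa7). Called genes lost and genes gained numbered 7 and 3 for LPA against control, 0 and 1 for HA155 against control, and 5 and 5 for LPA against HA155. For LPA against control the count of Nduf genes that fell was 31 to 37 with 1 array left out in turn (31 without control culture 3), with the median between -0.49 and -0.43 and 2296 to 3150 genes called in all. For LPA against HA155 the count was 31 to 38 (31 without HA155 culture 6), the median -0.56 to -0.49 and the total 2591 to 3460. For HA155 against control, the number of Nduf genes higher was 0 to 1 with an array left out and 1 with array weights, and in both cases the gene was Ndufv1. The number lower stayed at 0. The median difference ran from -0.00575 without HA155 culture 6, where it changed sign, to 0.0986 without HA155 culture 5. All genes called in that comparison numbered 138, 86 with no intensity filter, 338 with array weights, and 39 to 235 with an array left out: 78, 39 and 75 without control cultures 1, 2 and 3, 43, 43 and 55 without HA155 cultures 4, 5 and 6, and 235 without LPA culture 8. The cause was not tested. The difference of Ndufa4l2 between LPA and control ran from -0.119 without control culture 3 to 0.0639 without control culture 2 (adjusted p 0.593). No scaling moved the median of all genes by as much as 0.1. Where a group was left with 2 arrays, the spread was still pooled over all groups. No paired analysis was possible because the groups share no subject numbers. With 3 cultures a group, differences near the median standard error of 0.08 could not be resolved. Some larger ones were not called either, such as that of Ndufa5 between LPA and control (-0.22, limma adjusted p 0.0585). Levels near the filter, such as those of Ndufa4l2, Ndufaf5 and Ndufaf6, lie close to background.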
